A study of Mus musculus with 40 samples.

Results

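Follicular B cells lacking Tet3 (Tet3KO, libraries 19, 20 and 21) were compared with follicular B cells lacking Tet2 (Tet2KO, libraries 16, 17 and 18) by reduced representation bisulfite sequencing (RRBS), an assay that samples DNA methylation mainly in CpG-rich parts of the genome. The comparison covers every autosomal tile of 100 bp with a methylation level in all 6 libraries. There were 356488 such tiles of 971845 in the table, which is 38.2% of the autosomal tiles. The question is whether losing one of these enzymes leaves the methylome of the mature B cell in a different state from losing the other.

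TET enzymes are dioxygenases that oxidise 5-methylcytosine, a step on the way to its removal, so that methylation can persist or build up where they are missing. Tet2 and Tet3 are the family members chiefly used in B-lineage cells and are known to act redundantly at many regulatory elements. Follicular B cells are the mature, resting, recirculating B cells of spleen and lymph node, and B cells lose methylation at many lineage-specific regulatory elements on the way there.

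All mice were C57/bl. The knockouts were described by the submitters as inducible and placed under the Mb1 promoter, which drives expression from early B-lineage stages. Tet3KO libraries 19 and 21 came from males and library 20 from a female, all aged 7 weeks. Tet2KO libraries came from females aged 8 weeks (library 16) and 6 weeks (libraries 17 and 18). No age was shared, so age and genotype cannot be told apart, and sex could be matched only by setting Tet3KO library 20 against the 3 Tet2KO libraries. Follicular double-knockout cells (DKO, lacking Tet2 and Tet3, libraries 22 to 24) and wild-type cells (WT, libraries 13 to 15) are given beside them. DKO libraries 22 and 23 came from males aged 7 weeks and library 24 from a female aged 6 weeks. WT libraries came from males aged 8 weeks (library 13) and 6 weeks (library 14) and a female aged 6 weeks (library 15). WT ages thus matched Tet2KO, and most DKO ages matched Tet3KO. The part of age in tiles chosen on DKO and WT was not tested. Pro-B cells of the same genotypes, an early stage of B-cell development, are used for comparison. Pro-B libraries 1 to 12 had the sexes and ages of follicular libraries 13 to 24, in that order.

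Levels are the deposited methylation fractions of the tiles, given here in percent. No read counts came with them, so the depth behind a value is unknown and a level of 0 or 100% may rest on few reads. Tet3KO libraries 19, 20 and 21 had values at 550991, 579362 and 411441 tiles, against 533586, 580328 and 550184 tiles for Tet2KO libraries 16, 17 and 18. Library 21 therefore had the fewest, and 426919 autosomal tiles would have qualified without it. At tiles of intermediate level, library 21 also had the largest share of values at exactly 100%, 5.13%, against 1.53% in libraries 19 and 20 and 1.14 to 1.88% in the Tet2KO libraries. Nothing in the labels tells whether each library was made from a mouse of its own, so p-values rest on the spread between libraries. That spread may not be the spread between mice. In the main limma fit it was estimated over all 24 RRBS libraries in 8 groups. Coordinates are those of the mm9 build, for which no annotation was used, so places carry no gene names, and the deletions of Tet2 and Tet3 were not checked in these data.

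Across all 356488 tiles the Tet3KO libraries were slightly more methylated. Their mean levels were 61.5, 62.1 and 62.1% in libraries 19, 20 and 21, against 61.4, 61.4 and 61.4% in Tet2KO libraries 16, 17 and 18. The groups did not overlap, with 61.9 ± 0.330% in Tet3KO and 61.4 ± 0.0340% in Tet2KO cells (SD, n = 3 each). The difference of 0.491 points had an exact permutation p of 0.1 (two-sided), the smallest that 3 against 3 libraries can give. DKO cells averaged 61.8% and WT cells 60.9% at the tiles with values. In bulk cells a higher level can mean more cells with a methylated tile or more methylated copies per cell, and these cannot be told apart.

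The difference varied with how methylated a tile was in WT cells. At the 111279 tiles under 20% in WT, Tet3KO cells averaged 3.10 ± 0.216% and Tet2KO cells 2.73 ± 0.0190%. At the 203755 tiles over 80% in WT, Tet3KO cells averaged 93.9 ± 0.144% and Tet2KO cells 93.7 ± 0.0473%, and there the libraries overlapped. The 40903 tiles between 20 and 80% in WT, the class in which cells, alleles or the CpGs of a tile may differ in methylation, showed the widest gap of the 3 classes. There the Tet3KO libraries were at 60.5, 63.2 and 63.4%, against 59.9, 60.1 and 60.02% in the Tet2KO libraries, 63.6 ± 1.92% in DKO and 57.1 ± 0.866% in WT cells. The Tet3KO libraries all lay above the Tet2KO libraries by these means, with library 19 lowest and closest to Tet2KO, and the group difference was 2.35 points (SE 0.924, n = 3 each).

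**Figure D1:**
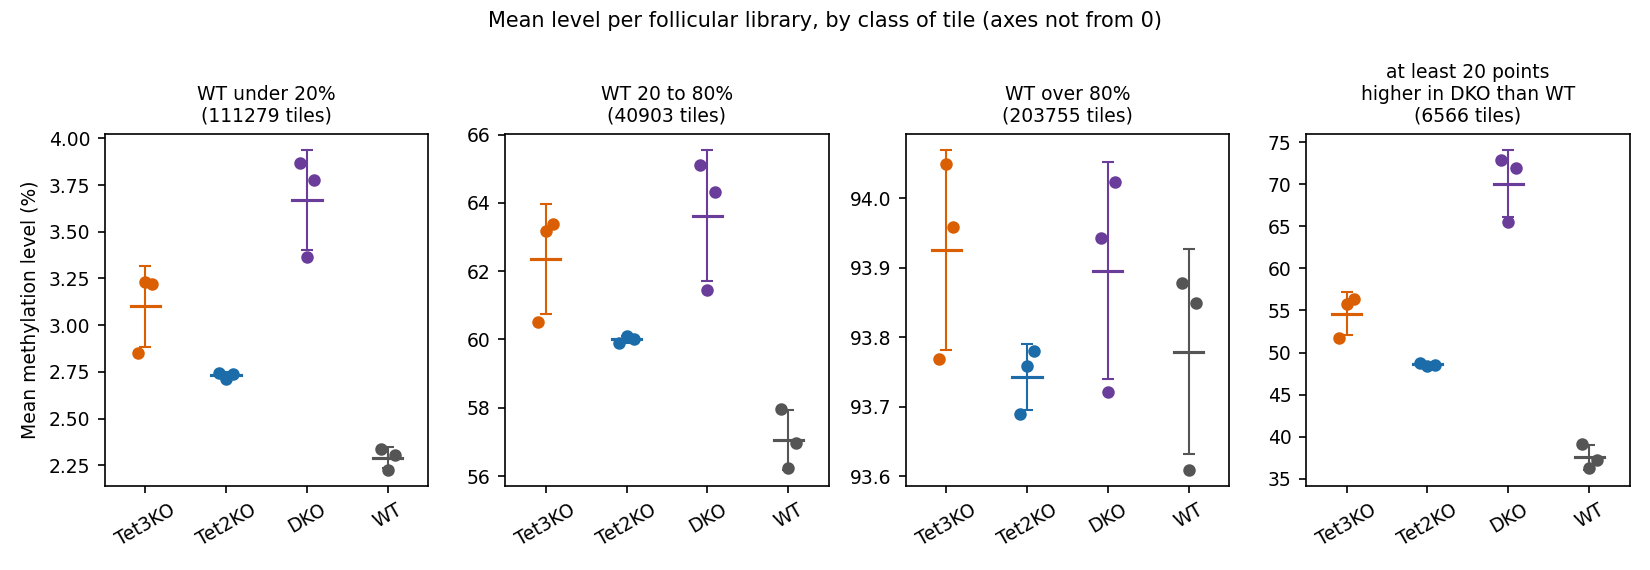
Mean methylation level in percent of each follicular library (points) with the group mean (bar) and SD (error bar), for tiles classed by the WT mean and for tiles at least 20 points higher in DKO than WT; the vertical axes differ and do not start at 0. Tet3KO libraries lie above Tet2KO libraries in all panels but that of tiles over 80% in WT, and the Tet2KO libraries lie close together.

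The same order was found on every autosome. At the tiles of intermediate WT level, Tet3KO exceeded Tet2KO on 19 of 19 chromosomes by 1.56 to 2.89 points, and on 14 of them the libraries did not overlap. The direction was also the same in sparse and dense parts of the table. At intermediate tiles with 3 or fewer tiles of the table within 500 bp on either side, itself included, as in isolated sequence outside CpG islands, Tet3KO cells averaged 66.2 ± 1.37% and Tet2KO cells 63.9 ± 0.116%. At intermediate tiles with 9 or more such neighbours, the averages were 53.3 ± 1.66% in Tet3KO and 51.6 ± 0.133% in Tet2KO cells, and Tet3KO library 19 (51.38%) lay just below the lowest Tet2KO library (51.40%).

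The gap was wider at tiles where the double knockout differed from WT. Tiles were chosen for a follicular DKO mean at least 20 points above the follicular WT mean, without use of the single knockouts, which gave 6566 tiles. At them the Tet3KO libraries stood at 51.7, 55.8 and 56.3%, and the Tet2KO libraries at 48.8, 48.4 and 48.5%. Every Tet3KO library was above every Tet2KO library, and library 19 was the lowest of the Tet3KO libraries. The means were 54.6 ± 2.55% in Tet3KO and 48.6 ± 0.188% in Tet2KO cells, a difference of 6.01 points (SE 1.47, n = 3 each). With DKO at 70.1% and WT at 37.5% there, Tet3KO had covered 52.4% of the span between WT and DKO and Tet2KO 34.0%. The DKO and WT values are stretched by the choice of tiles, so these percentages are descriptions of this set.

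On all 19 autosomes the 3 Tet3KO libraries lay above the 3 Tet2KO libraries at the mean of these tiles, by 4.59 to 7.47 points. The single female Tet3KO library against the 3 female Tet2KO libraries gave 7.22 points, a value that rests on 1 Tet3KO library and has no spread of its own. Without Tet3KO library 21, the one with the fewest tiles, it was 5.15 points, and without library 19 it was 7.47 points. Of the 6566 tiles, 15.6% had all Tet3KO libraries above all Tet2KO libraries and 1.93% had them all below. Over all tiles compared, these shares were 4.64 and 3.00%.

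The Tet3KO excess grew with the size of the DKO effect. Where DKO exceeded WT by under 10 points, Tet3KO exceeded Tet2KO by 0.346 points, and by 2.24 points where DKO exceeded WT by 10 to 20 points. From 20 to 30 points it was 4.71, from 30 to 40 it was 6.14 and from 40 to 50 it was 8.24 points. At the 766 tiles where DKO exceeded WT by 50 points or more, Tet3KO cells averaged 45.5 ± 1.34% and Tet2KO cells 35.0 ± 0.696%, a difference of 10.5 points (SE 0.872, n = 3 each), beside 81.7% in DKO and 18.4% in WT cells. In each of these 6 classes the libraries did not overlap. At the 1000 tiles at least 20 points lower in DKO than in WT, Tet3KO cells averaged 70.0 ± 1.08% and Tet2KO cells 69.4 ± 0.639%, with overlap, between 51.4% in DKO and 76.8% in WT cells.

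**Figure D2:**
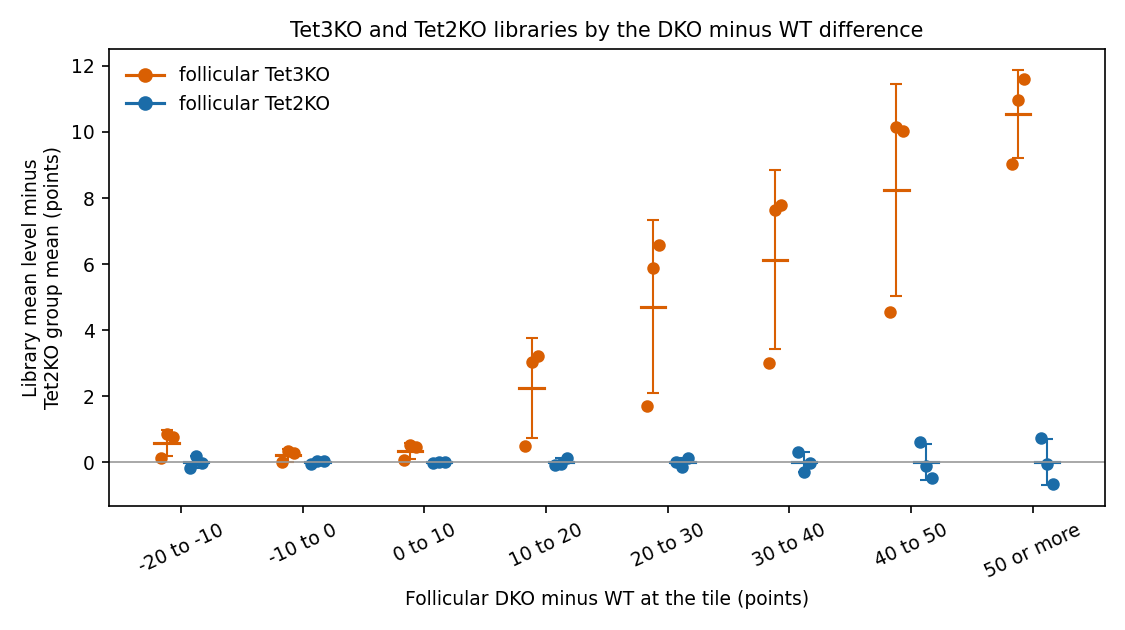
Mean level of each Tet3KO and Tet2KO library, in points relative to the Tet2KO group mean, for tiles grouped by the difference between follicular DKO and WT; points are libraries, bars group means and error bars SD. The Tet3KO libraries lie higher with each step from 0 to 10 points (difference of the means 0.346) to 50 points or more (10.5), and the lowest Tet3KO point is library 19 throughout.

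Tiles that lose methylation as B cells mature gave a difference in the same direction. At the 3479 tiles at least 20 points lower in follicular than in pro-B WT libraries, the Tet3KO libraries were at 60.6, 63.1 and 63.3%, and the Tet2KO libraries at 59.1, 58.8 and 59.2%. The averages were 62.3 ± 1.53% in Tet3KO, 59.0 ± 0.188% in Tet2KO, 66.5 ± 1.65% in DKO and 50.9 ± 1.96% in WT cells. The WT value is lowered by the choice of tiles. Every Tet3KO library was above every Tet2KO library there, and the difference was 3.28 points (SE 0.888, n = 3 each). The excess was larger at the 1000 of them that were also at least 20 points higher in DKO, 7.02 points, than at the 2412 that were not, 1.79 points. At the 13980 tiles at least 20 points higher in follicular than in pro-B WT cells, Tet3KO cells averaged 74.6 ± 1.28% and Tet2KO cells 73.2 ± 0.125%, and the libraries overlapped.

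Few single tiles passed a test between the knockouts. The level of each tile was modelled with limma over all 24 RRBS libraries of the table, with Benjamini-Hochberg adjustment over the 356488 tiles, and a tile was called at an adjusted p under 0.05 with a difference of at least 20 points. This called 2 tiles higher in Tet3KO (0.000561% of those tested) and 0 lower (0%). At an unadjusted p under 0.05 there were 13377 tiles, 3.75% of those tested. A difference of at least 20 points, whatever its p, was found higher in Tet3KO at 2517 tiles (0.706%) and lower at 1105 (0.310%). At an unadjusted p under 0.01 with at least 20 points, 288 tiles were higher (0.0808%) and 93 lower (0.0261%) in Tet3KO. The median SD between the 3 libraries of a group at an intermediate tile was 9.08 points in Tet3KO and 8.15 points in Tet2KO cells.

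The number of calls rested on the libraries used. With 1 library left out, the fit called 11, 12 and 12 tiles higher and 15, 25 and 9 lower without Tet3KO libraries 19, 20 and 21, and 9, 17 and 17 higher and 1, 3 and 4 lower without Tet2KO libraries 16, 17 and 18. With only the 12 follicular libraries fitted, or with sex as a covariate, there were 0 calls in each direction. Library by library, the genotypes did not form separate groups at intermediate tiles. The mean absolute difference per tile was 11.9 to 14.2 points between Tet3KO libraries, 11.6 to 12.4 points between Tet2KO libraries and 11.7 to 14.9 points between libraries of different genotype, with the largest values in pairs that held library 21.

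Without the size rule, 61 tiles passed at an adjusted p under 0.05, 36 higher (0.0101%) and 25 lower (0.00701%) in Tet3KO. Most of them were small differences at the ends of the scale. The median size was 4.50 points, 43 were under 10 points, 41 had a WT level under 20% and 19 a WT level over 80%. One example, named after its value was seen, is the tile at chromosome 10, 100173101 to 100173200. It was at 84.6% in Tet3KO and at 100% in Tet2KO cells, a difference of -15.4 points (SE 0.983, limma adjusted p = 0.000118), with 100% in DKO and 99.0% in WT cells.

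The first of the called tiles lies on chromosome 5, 101151201 to 101151300. Tet3KO libraries were at 94.4, 100 and 94.4%, against 62.5, 72.6 and 62.3% in Tet2KO libraries. DKO cells averaged 94.4 ± 5.05% and WT cells 62.6 ± 6.51% (SD, n = 3 each), so Tet3KO lay with DKO and Tet2KO with WT. The difference was 30.5 points (limma adjusted p = 0.0469). The nearest tile upstream, which starts at 101151001, had the same order, with 69.6, 70.0 and 78.6% in Tet3KO and 26.7, 46.4 and 57.9% in Tet2KO libraries, against 87.5, 100 and 100% in DKO and 17.2, 22.2 and 34.8% in WT libraries. The call was lost, with little change in size, without Tet3KO library 20 (28.7 points, limma adjusted p = 0.0705), without Tet2KO library 16 (28.9 points, limma adjusted p = 0.0723) and without Tet2KO library 18 (28.8 points, limma adjusted p = 0.0774).

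The other called tile, on chromosome 3, 129673501 to 129673600, was higher in Tet3KO than in the other 3 genotypes. Tet3KO libraries were at 41.2, 30.4 and 23.1%, against 0, 6.45 and 0% in Tet2KO libraries. DKO cells averaged 4.17% (n = 2) and WT cells 4.41 ± 5.10% (n = 3). The difference was 29.4 points (limma adjusted p = 0.0232), and the tile next to it upstream was less apart, at 24.2, 20.6 and 15.8% in Tet3KO and 13.8, 9.26 and 13.04% in Tet2KO libraries. That neighbour did not share the pattern, since DKO libraries were at 31.8, 23.1 and 15% and WT libraries at 32.4, 26.9 and 7.04%.

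Regions of 2 neighbouring tiles, each at an unadjusted p under 0.01 with at least 20 points and no overlap, numbered 3 in the direction of higher in Tet3KO and 0 in the direction of lower. None passed the adjusted test. On chromosome 8, 74844701 to 74844900, Tet3KO libraries were at 63.2, 58.6 and 58.0%, against 27.7, 26.8 and 16.7% in Tet2KO libraries, 88.1 ± 5.36% in DKO and 15.1 ± 1.77% in WT cells (lowest limma adjusted p = 0.118). In pro-B cells this region was at 91.3% in Tet3KO (libraries 7 and 9 only) and 91.2% in Tet2KO, with 84.0 to 100% in the WT pro-B libraries. The follicular levels of the single knockouts thus lay between the high pro-B level and the low follicular WT level, and Tet3KO was the higher of the single knockouts.

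Chromosome 9, 44379101 to 44379300, showed the same order with a wider span. Tet3KO libraries were at 38.4, 44.1 and 53.4%, against 6.79, 11.3 and 12.1% in Tet2KO libraries, 96.1 ± 4.603% in DKO and 1.13 ± 0.310% in WT cells (lowest limma adjusted p = 0.121). In pro-B libraries with a value it was at 100% in Tet3KO (library 7 only) and 98.3% in Tet2KO (libraries 4, 5 and 6). The pro-B WT value of 99.3% rested on library 2 only. The DKO level was thus near the pro-B level, WT near 0, and the single knockouts between them. On chromosome 15, 89354501 to 89354700, Tet3KO libraries were at 85.8, 77.8 and 99.0%, against 65.9, 47.6 and 71.0% in Tet2KO libraries, 89.3 ± 10.7% in DKO and 76.6 ± 8.20% in WT cells (lowest limma adjusted p = 0.800).

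**Figure D3:**
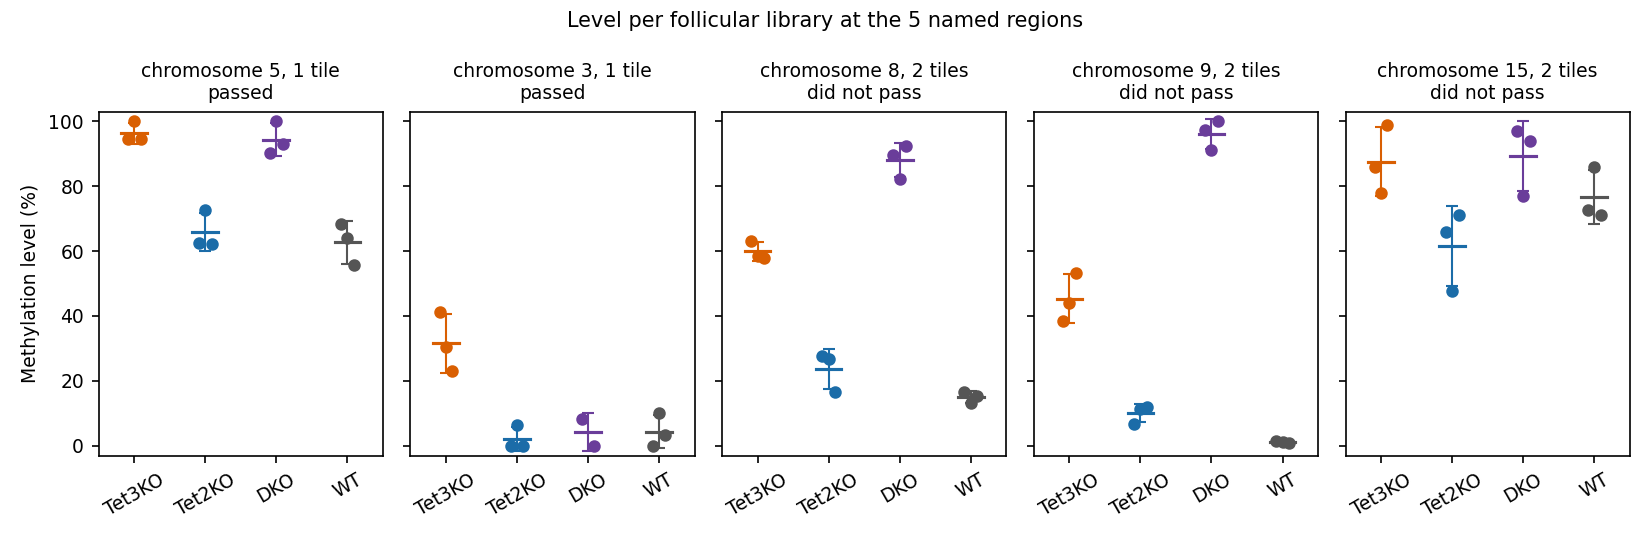
Methylation level in percent of each follicular library (points), with group mean (bar) and SD (error bar), at the 2 called tiles (chromosomes 5 and 3) and the 3 regions that did not pass (chromosomes 8, 9 and 15). Tet3KO libraries lie above all Tet2KO libraries in every panel, and DKO is near WT on chromosome 3 but above Tet3KO on chromosomes 8 and 9.

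WT and DKO levels were set beside the 288 tiles at least 20 points higher in Tet3KO at an unadjusted p under 0.01. Of the 275 with values in those groups, 189 had WT nearer to Tet2KO, 217 had DKO nearer to Tet3KO and 147 had both, and at 108 DKO exceeded WT by at least 20 points. The 93 tiles lower in Tet3KO differed in this. Of 83 with values, 48 had both WT and DKO nearer to Tet2KO, and at 6 DKO exceeded WT by at least 20 points. Of all 356488 tiles compared, 6566 had DKO at least 20 points above WT. Nearness was judged on the same Tet3KO and Tet2KO levels that picked the tiles. It has no share over all tiles beside it, so these counts are descriptions.

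To ask whether neighbouring tiles add up, tiles with a value in all 12 follicular libraries were joined within 500 bp, an analysis added after the data had been seen. Of 82877 clusters of at least 2 tiles, limma on the 12 libraries found 0 (0%) at an adjusted p under 0.05, with 4917 (5.93%) at an unadjusted p under 0.05. At an unadjusted p under 0.01, 780 clusters were higher and 328 lower in Tet3KO. The lowest adjusted p was 0.136, shared by the chromosome 9 region above and a pair of tiles on chromosome 8, 87273801 to 87274000. That pair was at 100, 100 and 100% in Tet3KO and 87.5, 87.6 and 89.3% in Tet2KO libraries. DKO was at 98.8 ± 2.14% and WT at 94.9 ± 1.18% there, so Tet2KO was the lowest group.

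Other clusters among the 10 with the lowest p illustrate the range of patterns, and none passed. In some, as in the chromosome 8 pair, Tet2KO lay below both WT and DKO. On chromosome 19, 53832101 to 53832300, Tet2KO was at 87.2%, WT at 92.2%, DKO at 94.5% and Tet3KO at 98.1%. In the same order of genotypes, levels were 75.7, 86.1, 86.8 and 94.2% on chromosome 5, 121321001 to 121321200. They were 78.8, 93.3, 93.1 and 96.2% on chromosome 12, 106461201 to 106461400. On chromosome 3, 27182001 to 27182200, Tet3KO libraries were at 81.3, 82.9 and 85.2% and Tet2KO libraries at 61.0, 59.1 and 51.5%, with DKO at 86.3 ± 2.89% and WT at 49.97 ± 1.21% (limma adjusted p = 0.370). On chromosome 11, 54844601 to 54844800, Tet3KO libraries were at 38.8, 28.7 and 35.9% and Tet2KO libraries at 8.84, 13.5 and 5.09%, with DKO at 59.7 ± 6.20% and WT at 3.94 ± 2.40% (limma adjusted p = 0.353). Both put Tet3KO between WT and DKO or near DKO, and Tet2KO near WT.

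A stretch of 10 tiles on chromosome 17, 23863001 to 23864100, was nearly unmethylated in all groups but kept the same order. Tet3KO libraries were at 5.88, 5.98 and 4.76% and Tet2KO libraries at 2.34, 1.88 and 1.65%, with DKO at 5.47 ± 0.644% and WT at 1.90 ± 0.645% (limma adjusted p = 0.353). At 5 tiles on chromosome 14, 120686301 to 120687100, Tet3KO libraries were at 65.0, 76.9 and 75.3% and Tet2KO libraries at 54.5, 49.9 and 48.6%, with DKO at 67.3 ± 5.39% and WT at 55.5 ± 5.29% (limma adjusted p = 0.468 among clusters of at least 5 tiles). The opposite direction occurred once among the 10, on chromosome 6, 54431801 to 54432100, where Tet3KO was at 86.0 ± 1.39% and Tet2KO at 95.4 ± 2.26%, with DKO at 96.2% and WT at 99.4% (limma adjusted p = 0.353).

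Regions with the largest effect of the double knockout were taken next, chosen on DKO and WT libraries only. They were stretches of at least 2 tiles within 500 bp, each at least 50 points higher in DKO than in WT, and there were 128 of them with 290 tiles. Tet3KO libraries all lay above Tet2KO libraries in 46 and all below in 3, and in 79 they overlapped. Among all clusters of at least 2 tiles, 6.90% had them all above and 3.90% all below. The median level over the 128 regions was 41.7% in Tet3KO, 32.4% in Tet2KO, 83.6% in DKO and 15.6% in WT cells. The median difference between Tet3KO and Tet2KO was 10.1 points, with a range of -20.3 to 38.5 points, and it was positive in 99 regions.

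The regions spread over the whole scale. In 45 of them Tet3KO cells were over 50%, against 19 for Tet2KO cells, and in 14 both were under 20%. The 2 widest gaps in favour of Tet3KO, named after their values were seen, were on chromosome 2, 71978501 to 71978800, and on chromosome 8, 89435001 to 89435200. The first was at 49.5 ± 16.9% in Tet3KO and 11.1 ± 6.41% in Tet2KO, with DKO at 77.8% and WT at 5.19%. The second was at 55.1 ± 3.14% in Tet3KO and 16.7 ± 3.20% in Tet2KO, with DKO at 81.3% and WT at 8.64%.

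In other regions the single knockouts were level, or the order was turned round. On chromosome 11, 5058301 to 5058500, Tet3KO was at 5.56% and Tet2KO at 5.397%, with DKO at 83.5% and WT at 2.47%, so both single knockouts were near WT. On chromosome 17, 6981601 to 6981800, Tet3KO libraries were at 22.4, 26.3 and 27.5%, and Tet2KO libraries at 48.8, 49.2 and 34.9%, with DKO at 90.4% and WT at 8.36%. On chromosome 8, 125917001 to 125917200, Tet3KO was at 38.4 ± 10.9% and Tet2KO at 58.7 ± 2.44%, with DKO at 87.1% and WT at 30.8%, a difference of -20.3 points, and the libraries did not overlap. No region of this set had a tile past the adjusted test in the contrast of Tet3KO with Tet2KO.

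**Figure D4:**
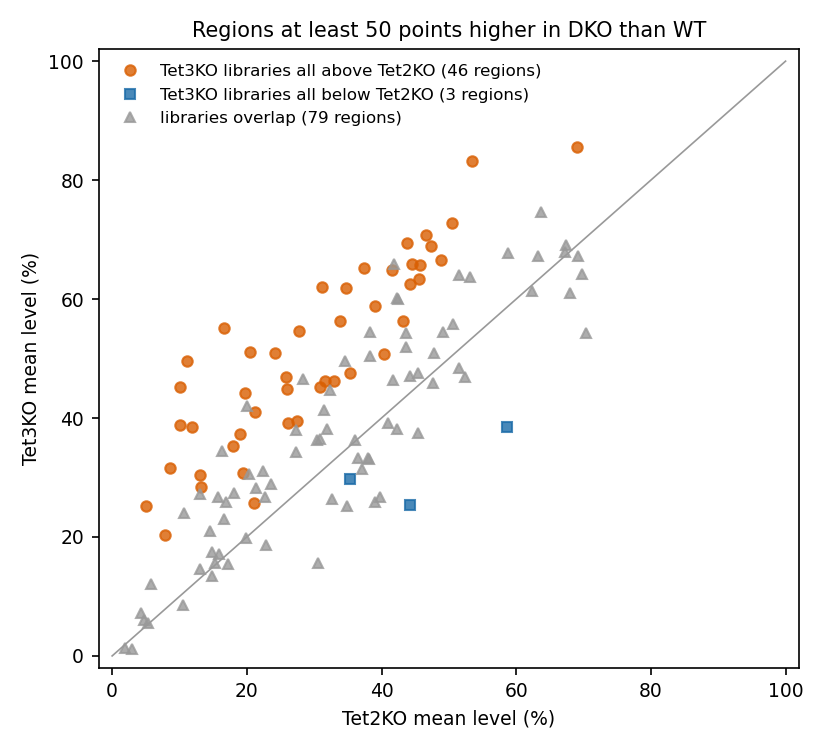
Mean methylation level in percent in Tet3KO (vertical) against Tet2KO (horizontal) for the 128 regions at least 50 points higher in DKO than WT; the line marks equal levels and symbols show whether the 3 libraries of each genotype overlap. More regions lie above the line (99) than below it, and the 46 regions without overlap in favour of Tet3KO extend from low to high Tet2KO levels, against 3 in the other direction.

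In pro-B cells the genotypes overlapped in their mean levels at tiles higher in follicular DKO than WT. Pro-B Tet3KO libraries 7, 8 and 9 had values at 395044, 24600 and 318756 tiles, against 532170, 631415 and 402283 tiles in pro-B Tet2KO libraries 4, 5 and 6. Library 8 stood apart from all others and was left out of the means. At 2930 tiles higher in follicular DKO than WT with values in the other pro-B libraries of both genotypes, pro-B Tet3KO libraries 7 and 9 were at 36.3 and 41.5%, and pro-B Tet2KO libraries 4, 5 and 6 at 40.002, 41.7 and 34.8%. At the same tiles follicular Tet3KO libraries 19, 20 and 21 were at 42.9, 47.9 and 48.5%, and follicular Tet2KO libraries 16, 17 and 18 at 39.8, 39.3 and 39.96%. At these tiles the genotypes thus overlapped in pro-B cells and did not in follicular cells. The difference between the stages in these means was not tested. At 21011 tiles of intermediate WT level, pro-B Tet3KO libraries 7 and 9 were at 46.0 and 48.8%. Pro-B Tet2KO libraries 4, 5 and 6 were at 51.8, 54.2 and 47.7% there. Single tiles did differ in pro-B cells, where limma called 90 higher and 481 lower in Tet3KO of 198381 tested.

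Single tiles that differed in follicular cells went the same way in pro-B cells about as often as the other way. Of 118 tiles at an unadjusted p under 0.01 and at least 20 points higher in follicular Tet3KO with pro-B values, 57 differed in the same direction in pro-B cells, 51 in the opposite one and 10 were equal. Over all 198381 tiles with pro-B values, 89007 were counted in the same direction, 87935 in the opposite one and 44996 as equal. Those classes overlap, since their counts add to more than the tiles. The counts at the 118 tiles thus describe the listed tiles only. Among the tiles at an adjusted p under 0.05, 26 higher and 16 lower in follicular Tet3KO had at least 2 pro-B values per genotype. The pro-B difference was 0 at 17 of the 26 and at 12 of the 16, so few could meet a rule of size. A pro-B difference of the same sign and at least 0.5 of the size was counted at 74734 of all 198381 tiles. Among the tiles at an adjusted p under 0.05 it was found at 1.

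That tile, on chromosome 17, 39981101 to 39981200, was lower in Tet3KO. Tet3KO libraries were at 5.87, 9.73 and 9.03%, against 19.7, 20.04 and 17.4% in Tet2KO libraries, a difference of -10.8 points (SE 1.47, limma adjusted p = 0.0118), with 7.57% in DKO and 8.80% in WT cells. In pro-B cells Tet3KO libraries 7, 8 and 9 were at 5.91, 2.77 and 6.41%, and Tet2KO libraries 4, 5 and 6 at 20.4, 18.8 and 13.9%. It lies in a run of 52 tiles joined within 500 bp, 39979901 to 39985700, described here after its values were seen. Tet3KO had the lower mean at 45 of the 52, all 3 libraries lower at 33 and all higher at 1. Over all tiles compared, 3.00% had them all lower and 4.64% all higher, but the run was picked through a tile of its own that passed, so its count is a description.

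Over the run of 52 tiles, Tet3KO libraries 19, 20 and 21 averaged 19.8, 23.2 and 23.3%, and Tet2KO libraries 16, 17 and 18 averaged 26.3, 25.8 and 25.1%, with DKO at 18.5 ± 0.181% and WT at 19.03 ± 1.92% (SD, n = 3 each). Pro-B libraries showed 11.2 and 10.4% in Tet3KO, against 21.7, 24.4 and 18.1% in Tet2KO, with 14.1 ± 2.21% in DKO and 12.3 ± 1.99% in WT. Here Tet2KO stood above the other 3 genotypes in each stage, DKO included, although DKO cells lack Tet2 too. The Tet2KO mice were all female, and the part of sex and age in this level was not tested. Pro-B and follicular libraries may come from the same mice, so the stages need not be separate observations. Pro-B Tet3KO library 8, with values at only 24600 tiles of the table, had values at 50 of these 52. Whether reads from other copies of this sequence add to these levels was not tested.

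**Figure D5:**
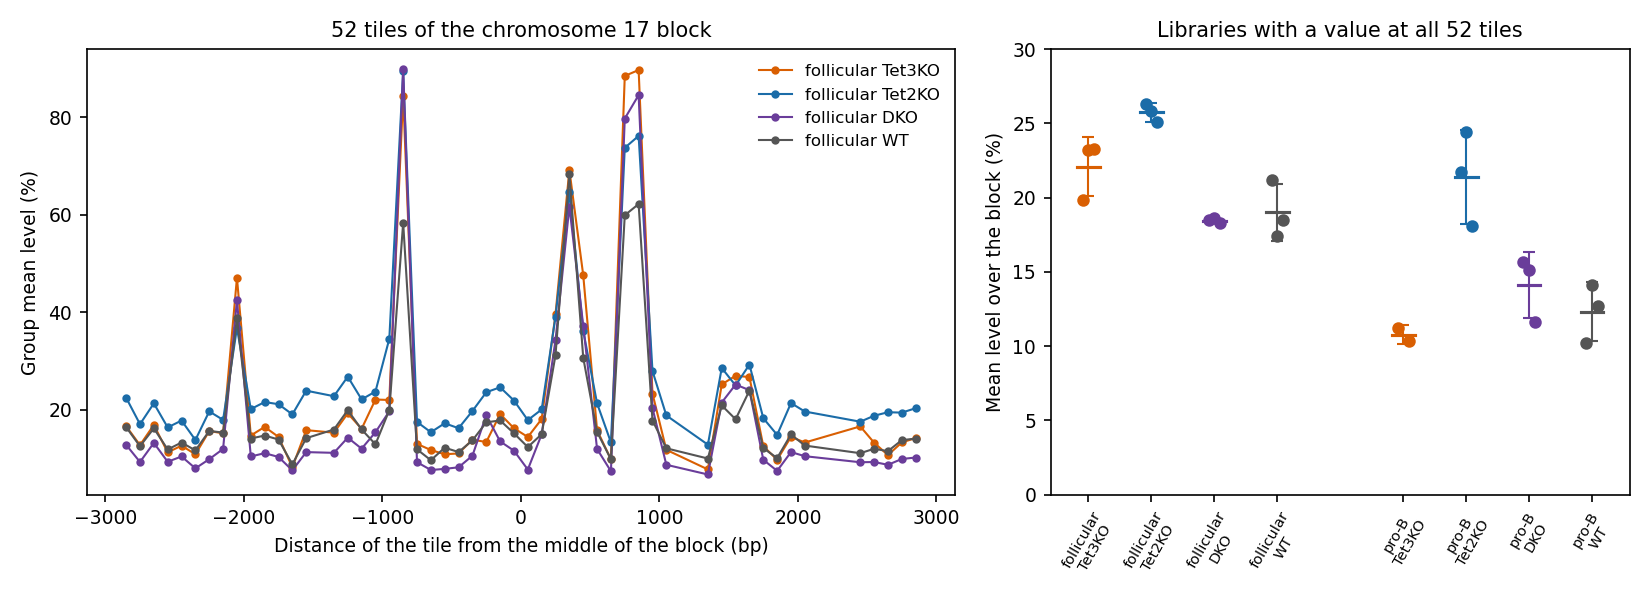
Left, group mean level in percent of the 4 follicular genotypes at each of the 52 tiles on chromosome 17, by distance in bp from the middle of the run; right, mean over the 52 tiles of each library with all values (points), with group mean (bar) and SD (error bar). Tet2KO lies above the other genotypes at most tiles outside the highly methylated ones, and on average in both stages (25.8% in follicular and 21.4% in pro-B cells).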

How the data were processed

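RRBS libraries of 24 samples (8 groups of 3) were grouped by genotype, sex and age from the labels; 16 RNA samples were not analysed here. The values deposited by the authors are, per the file headers, a methylation fraction between 0 and 1 per 100 bp tile and library, multiplied here by 100. Trim Galore and methylKit and the builds mm9 and hg19 are named in the submitters' processing notes. The last tile of chromosome 1 ends at 197193600, which fits mm9, and coordinates are printed unchanged. Aligner, coverage minimum and conversion rate are not given in the sources used here.

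Limma 3.58.1 (R 4.3.3; two-sided, trended prior spread, 8 groups as 1 factor, 16 residual degrees of freedom where no value is missing) was used, with missing values allowed outside the 6 libraries compared. X and Y were left out. Classes set by WT, DKO or pro-B libraries needed at least 2 values per group. Called tiles within 500 bp were joined; named were up to 10 regions per direction of called tiles without overlap, then regions of at least 2 tiles at an unadjusted p under 0.01, at least 20 points and no overlap. Levels of regions are averages of their tiles. The tile set, classes and lists were chosen with earlier results of these data known. The fit was tested on simulated data. Alternatives were the logit scale, other sets of libraries and tiles, sex and age as covariates, centring, other size rules and each library left out; the clusters, the regions chosen on DKO and WT and the chromosome 17 run were added after the data were seen.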

Additional observations from a re-analysis of the deposited data

Results flagged for a closer look

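The same contrast in pro-B cells differed from that in follicular cells at single tiles. Of 198381 tiles with enough pro-B values, 159 were called for the difference between the stages (follicular minus pro-B contrast, limma, adjusted p under 0.05 and at least 20 points), 148 with the higher and 11 with the lower follicular contrast. At an unadjusted p under 0.05 there were 12266 tiles. The pro-B side carried most of it: the median pro-B difference between Tet3KO and Tet2KO at the tiles called was -38.1 points, whereas the follicular difference was between -17.5 and 19.05 points. Without the pro-B library of fewest tiles (Tet3KO library 8) the counts were 150 and 11. The remaining pro-B Tet3KO libraries had values at 395044 and 318756 tiles, and their part in the result was not tested. The fit took pro-B and follicular libraries as separate observations, although they may come from the same mice.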

How the results depend on the processing

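The calls changed with the settings. On the logit scale 5 tiles were called higher and 4 lower in Tet3KO. With only the 12 follicular libraries or only the 6 libraries fitted, with sex or with sex and age as covariates, with each library centred, or with tiles of a mean under 5 or over 95% left out, 0 were called higher and 0 lower. With female libraries only, where Tet3KO was 1 library assumed to vary like the other groups, 75 were higher and 234 lower. With 30 points in place of 20 there was 1 higher, with 10 points 9 higher and 9 lower, and with no minimum difference 36 higher and 25 lower. With a value in at least 2 of 3 libraries per group 17 were higher and 15 lower, and with a value in all 12 follicular libraries 1 was higher and 0 lower. With 1 library left out, 9 to 17 were higher and 1 to 25 lower. X and Y kept gave 2 and 0. The cause was not tested. The chromosome 5 tile lost its call under 10 of 20 alternatives (limma adjusted p 0.0141 to 0.469) and the chromosome 3 tile under 8 of 19 (0.00169 to 0.604), with differences of 28.7 to 34.2 and 24.6 to 33.7 points.

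None of the differences in mean level reversed. With 30 points in the choice of tiles the difference was 7.87 points at tiles higher in DKO and 5.02 points at tiles lower in follicular than pro-B WT cells. With each library's median level over tiles in place of its mean, the difference was 0.0528 points at tiles under 20% in WT and 0.418 points at tiles over 80%, where female libraries only gave 0.307 points. With 1 library left out, the last class gave 0.121 points without Tet3KO library 20 and 0.262 points without library 19. Both are among the 64 alternatives that stayed within 1 SD between libraries, a number that includes those of the chromosome 17 run. The median difference at the 128 regions was 8.54 to 10.8 points with 1 library left out, 9.87 points with regions chosen at 40 points and 8.92 points in females only. Clusters gave 0 calls at an adjusted p under 0.05 in limma fits of only the 6 libraries and with each library left out, beside 4917 at an unadjusted p under 0.05 in the fit of 12. No paired analysis was possible because the libraries of the compared groups carry running numbers and share none. Depth is unknown, so levels at single tiles have no counting interval.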

Other observations

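Among tiles at an unadjusted p under 0.01 whose libraries did not overlap, the 5 widest gaps in each direction did not pass the test and were picked after their values were seen. The widest of those higher in Tet3KO, on chromosome 2, 71978701 to 71978800, had Tet3KO libraries at 58.1, 75 and 92.3% and Tet2KO libraries at 7.14, 4.55 and 20.6%, with DKO at 94.6% and WT at 4.44% (difference 64.4 points, limma adjusted p = 0.808). The next, on chromosome 9, 62664201 to 62664300, had Tet3KO libraries at 75, 71.1 and 81.0% and Tet2KO libraries at 11.1, 27.3 and 0% (difference 62.9 points, limma adjusted p = 0.0653). DKO was at 96.7% there (libraries 22 and 23 only) and WT at 7.78%. Tiles on chromosome 4 (105985801 to 105985900) and chromosome 9 (108954901 to 108955000) followed with 59.3 and 58.0 points (limma adjusted p = 0.273 and 0.698). The fifth, on chromosome 17, 71439701 to 71439800, had Tet3KO libraries at 63.0, 47.1 and 76.7% and Tet2KO libraries at 9.52, 6.45 and 5.26% (difference 55.2 points, limma adjusted p = 0.147). DKO was at 100% there (libraries 23 and 24 only) and WT at 0%. The widest gap in the other direction, on chromosome 11, 5908801 to 5908900, had Tet3KO libraries at 40, 32.1 and 7.69% and Tet2KO libraries at 100, 65.9 and 91.3%, with DKO at 69.7% and WT at 31.1% (difference -59.1 points, limma adjusted p = 0.793). In that tile the genotypes were apart in every library, but DKO lay nearer to Tet2KO and WT nearer to Tet3KO.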
